A study of Mus musculus with 6 samples.

Results

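The ligands and receptors of the classical axon guidance families were followed in neural progenitor cells (NPCs) that lack the cold-shock protein Ybx1, which binds DNA and RNA. Members were taken by gene symbol alone and comprised the semaphorins, plexins, neuropilins, Eph receptors, ephrins, Slits, Robos, netrins, the Unc5 receptors and Dcc. The rule found 68 of the 51733 genes in the count tables, with 34 ligands and 34 receptors, and used no measured value. The cells were Sox2-positive NPCs, sorted by FACS for a Sox2-GFP reporter from mouse neural tubes at E13.5. The null line had been back-crossed to C57BL/6. The reporter is an allele of Sox2, in a line that the paper lists with a mixed strain background. The resulting background of the sorted embryos was not given. The control group, labelled wildtype, consisted of sibling embryos without the null genotype (n = 3 libraries), and the Ybx1-KO group carried the constitutive Ybx1 null allele in all cells of the embryo (n = 3 libraries), so that the sorted cells had also developed among Ybx1-deficient tissue. Embryos of both sexes were used in the study, and both groups were sorted through the same reporter.

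Guidance cues are secreted or displayed by cells along the path of a growing axon and attract or repel the growth cone through receptors on its surface. Semaphorins signal through plexins, with neuropilins as the binding subunit for most secreted class 3 members, ephrins through Eph receptor tyrosine kinases, Slits through Robos, and netrins through Dcc and the Unc5 receptors. In the embryonic neural tube the same families also act on progenitors, where they take part in regional boundaries, in the attachment and movement of progenitors and in the migration of newborn neurons.

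Counts on genes came to 20841990, 23883542 and 21574427 in control 1, 2 and 3, and to 8483075, 13321952 and 4743279 in Ybx1-KO 1, 2 and 3. Levels are given in CPM, the counts of a gene relative to a library size that was scaled with edgeR's TMM factors, and, for comparisons between genes, per kilobase of exon as FPKM on the same TMM scale. A gene without counts could have up to 3 by counting error alone. Before TMM scaling this is 0.126 CPM in the deepest library and 0.632 CPM in the shallowest. The deleted gene, Ybx1 (chr4:119277981-119294604 in GRCm38), was at 238, 531 and 306 CPM in control 1, 2 and 3 and at 126, 55.4 and 9.66 CPM in Ybx1-KO 1, 2 and 3. The groups did not overlap, and its log2 fold change was -2.49 ± 0.675 (SE, edgeR's quasi-likelihood test, adjusted p = 0.301, n = 3 per group). Ybx1-KO 1 thus retained the most reads on the gene, and the part of the transcript removed by the allele was not analysed here.

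Ybx1-KO 3 differed from the other libraries in ways that the genotype does not share. It had 8.24 read pairs outside genes for each count on a gene, against 1.41 to 2.00 in the other 5 libraries, and 39553 genes with counts against at most 30482. In it, 1942 odorant, pheromone and taste receptor genes, which are largely silent outside sensory tissue, took 4691 CPM before TMM scaling, while the highest other library had 98.3. The mean level over those genes was 0.529 FPKM in Ybx1-KO 3 and at most 0.0180 FPKM elsewhere, and 13 members had less than 3 times that level in Ybx1-KO 3 (Efna1, Epha2, Epha6, Epha8, Nrp1, Ntn5, Plxnb3, Sema3a, Sema3d, Sema3e, Sema5a, Sema6b and Unc5d). The part of these reads in the members' values was not tested, and results are given without Ybx1-KO 3 where they rest on it.

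Of the 68 members, 61 had a mean FPKM above 1 in control or in Ybx1-KO libraries and were tested. The untested members were Epha6, Epha8, Ntn5, Plxnb3, Sema3d, Sema3e and Sema3g. Efna1, Epha1, Epha2, Epha10, Robo4 and Sema3b passed through the Ybx1-KO mean alone and Sema5a through the control mean alone. None of the 61 members had an adjusted p below 0.05 in edgeR with Benjamini-Hochberg adjustment over all 21330 tested genes (share of all tested genes called 0%), and their lowest adjusted p was 0.287. DESeq2 called 2 members, Robo2 and Sema5a (all tested genes 1%), and edgeR without a filter on low counts called 1, Unc5d (all tested genes 0.451%). At an unadjusted p below 0.05, 15 members were lower in Ybx1-KO NPCs, which is 24.6% of the tested members beside 4.26% of all tested genes, and 7 were higher, which is 11.5% beside 6.96%. Ybx1-KO values lay below all control values for 12 members (19.7%, all tested genes 8.16%) and above them for 3 (4.92%, all tested genes 4.99%), of which Epha2 entered the test through the Ybx1-KO mean alone, as Sema5a among the 12 did through the control mean. The median log2 fold change was -0.06 over the tested members and 0.31 over all tested genes, and single members ranged from -1.77 (Unc5d) to 1.92 (Sema3b).

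Leaving out Ybx1-KO 3 gave 15 lower (all tested genes 5.55%) and 8 higher members (all tested genes 5.84%) at an unadjusted p below 0.05, while the median became 0.17 over the members and -0.07 over all tested genes. The place of the members' median beside that of all genes thus depended on Ybx1-KO 3. Fewer members were below this p without control 1, with 8 lower (all tested genes 1.85%) and 2 higher (3.02%), and without Ybx1-KO 1, with 8 lower (4.39%) and 5 higher (11.1%). Of the single members, Sema3b and Nrp1 no longer had an unadjusted p below 0.05 without Ybx1-KO 3 (log2 fold changes 0.70 and -1.01), whereas Robo3, Plxnb1 and Unc5c then had one, with log2 fold changes of 1.36, 0.87 and -0.98. When each library was left out in turn, 5 of the 15 lower members kept an unadjusted p below 0.05 every time, namely Epha3, Robo2, Sema3a, Sema5a and Unc5d (33.3%, all lower genes 24.8%). Among the 7 higher members, Slit3 alone did so (14.3%, all higher genes 9.03%).

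**Figure D1:**
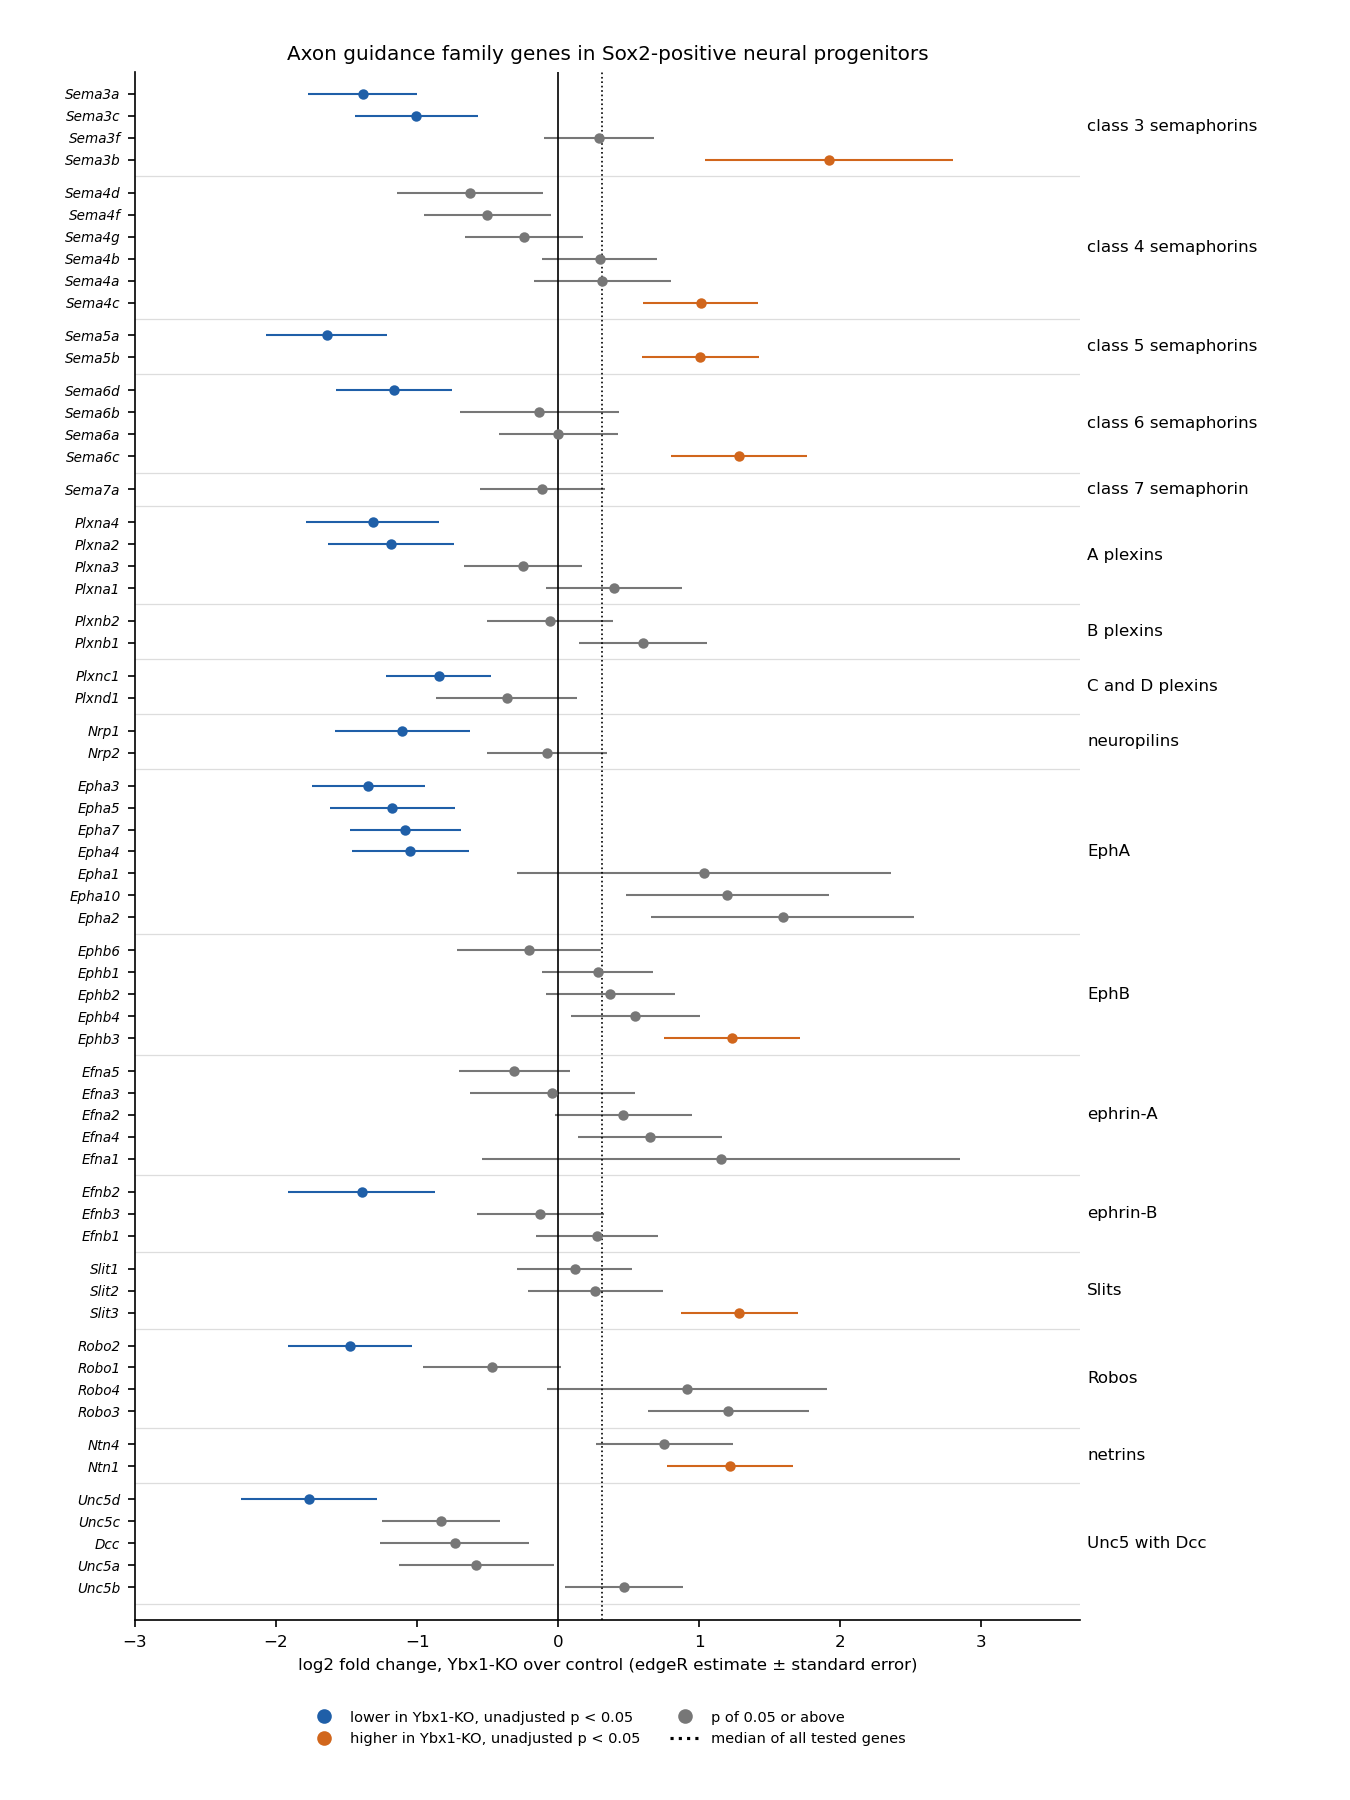
Log2 fold changes of the 61 tested members in Ybx1-KO over control NPCs, with points for edgeR estimates, bars for standard errors and families named at the right. Blue and orange mark the 15 lower and 7 higher members at an unadjusted p below 0.05, and the dotted line is the median of all 21330 tested genes at 0.31.

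The counts of members depended on how the libraries were scaled. With the total count on genes in place of TMM, Ybx1-KO values lay below all control values for 7 members (11.5%, all tested genes 4.83%) and above them for 8 (13.1%, all tested genes 6%). Epha3, Plxna2, Robo2, Sema3a and Sema5a lay below, and Slit3 and Sema5b above, with each of the 4 scalings that were compared. Overlap of single genes is given under TMM unless another scaling is named.

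Among the semaphorins, class 5 and class 6 each held 1 lower and 1 higher member at an unadjusted p below 0.05. Sema5a (chr15:32244810-32696341), a transmembrane semaphorin with thrombospondin repeats, was at 66.9, 41.1 and 62.9 CPM in control 1, 2 and 3 and at 11.3, 29.2 and 14.2 CPM in Ybx1-KO 1, 2 and 3. Every control library was above every Ybx1-KO library, and the log2 fold change was -1.64 ± 0.430 (edgeR, adjusted p = 0.287), for a gene that entered the test through the control mean alone. Its paralog Sema5b (chr16:35541145-35664732) was at 51.9, 91.5 and 96.9 CPM in controls and at 185, 179 and 119 CPM in Ybx1-KO libraries. Here every Ybx1-KO library was above every control, with a log2 fold change of 1.01 ± 0.414 (edgeR, adjusted p = 0.444). Sema5b was far more abundant than Sema5a per exon length (17.0 and 2.01 FPKM over the 6 libraries), and the summed level of class 5 averaged 14.4 ± 3.14 FPKM over controls and 23.7 ± 5.35 FPKM over Ybx1-KO libraries (SD, n = 3 each), and the groups were apart with each of the 4 scalings.

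Sema3a (chr5:13125414-13602565), a secreted repellent that binds neuropilin-1, was at 61.2, 51.4 and 41.5 CPM in controls and at 13.4, 24.7 and 20.9 CPM in Ybx1-KO libraries, for a log2 fold change of -1.38 ± 0.387 (edgeR, adjusted p = 0.328). Sema3c, another secreted ligand of the neuropilins, was at 43.4, 16.7 and 21.7 CPM in controls and at 12.6, 13.4 and 14.8 CPM in Ybx1-KO libraries. For both genes the groups did not overlap under TMM, but control 2 of Sema3c lay close to the Ybx1-KO libraries. The groups of Sema3c overlapped with RLE, upper-quartile and total count scaling. Sema3f, whose main binding partner is neuropilin-2, had a log2 fold change of 0.29 with overlapping groups. Sema3b had the largest positive value of any tested member, 1.92 ± 0.878, but stood at 1.47, 6.13 and 18.3 CPM in Ybx1-KO 1, 2 and 3 beside 0.983 to 3.10 CPM in controls. Its value thus rested largely on Ybx1-KO 3, without which its log2 fold change was 0.70.

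Class 4 and class 6 semaphorins are membrane-bound. Sema6d (chr2:124089969-124667770), a ligand of plexin-A1, was at 167, 84.2 and 101 CPM in controls and at 38.8, 68.0 and 50.2 CPM in Ybx1-KO libraries (log2 fold change -1.16 ± 0.412, edgeR, adjusted p = 0.420), without overlap. Sema6c was at 24.5, 42.6 and 40.4 CPM in controls and at 158, 65.1 and 38.7 CPM in Ybx1-KO libraries (log2 fold change 1.28). Sema4c, a ligand of plexin-B2, was at 18.9, 24.5 and 18.5 CPM in controls and at 57.0, 45.1 and 22.4 CPM in Ybx1-KO libraries (log2 fold change 1.01). In Sema6c and Sema4c alike, Ybx1-KO 1 was highest and Ybx1-KO 3 lay within the control range under TMM. For both genes, every Ybx1-KO library was above every control with RLE, upper-quartile and total count scaling. Without Ybx1-KO 1 the log2 fold changes of Sema6c and Sema4c were 0.53 and 0.71. Sema6a stood at 11.9 FPKM over controls, where it was the most abundant semaphorin beside Sema5b (11.3 FPKM) and Sema6d (11.1 FPKM). Sema6a had a log2 fold change of 0.0014 and groups that overlapped. The class medians were 0.03 over the 6 tested class 4 members and -0.07 over the 4 class 6 members, and Sema7a, the only class 7 member, stood at -0.11.

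The receptors for these ligands were lower or overlapped between the groups. Plxna2 (chr1:194618218-194816869), an A plexin that transduces semaphorin signals, was at 362, 260.2 and 332 CPM in controls and at 97.6, 207 and 115 CPM in Ybx1-KO libraries, for a log2 fold change of -1.19 ± 0.447 (edgeR, adjusted p = 0.432), without overlap. Plxna4 (chr6:32144268-32588192), which pairs with neuropilin-1 in the response to Sema3a, was at 169, 102 and 178 CPM in controls and at 31.0, 104 and 45.3 CPM in Ybx1-KO libraries (log2 fold change -1.31 ± 0.473). For Plxna4, Ybx1-KO 2 reached the level of control 2 under TMM, and the other 4 libraries kept the groups apart. With total count scaling, every Ybx1-KO value of Plxna4 lay below every control value. Neuropilin-1 itself, Nrp1, was at 56.7, 23.1 and 35.8 CPM in controls and at 9.07, 30.2 and 14.4 CPM in Ybx1-KO libraries, with the same overlap of control 2 and Ybx1-KO 2. Nrp2 was the more abundant neuropilin (7.65 FPKM, Nrp1 2.88 FPKM) and had a log2 fold change of -0.08.

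Plxnc1, the receptor of Sema7a, was at 60.2, 40.1 and 54.5 CPM in controls and at 23.0, 28.9 and 34.1 CPM in Ybx1-KO libraries (log2 fold change -0.85 ± 0.371). Its groups did not overlap under TMM, but did with RLE, upper-quartile and total count scaling. Plxna1, the most abundant of all 68 members over the 6 libraries (22.6 FPKM) though not in controls alone (19.5 FPKM, Efnb3 22.4 FPKM), and Plxnb2 (16.9 FPKM) had log2 fold changes of 0.40 and -0.06, and both overlapped. The median was -0.72 over the 4 A plexins and 0.27 over the 2 tested B plexins. Summed over members, A plexins stood at 2.33, 1.74 and 2.03 times the B plexins in control 1, 2 and 3 and at 1.10, 1.47 and 1.40 times in Ybx1-KO 1, 2 and 3. This ratio, which does not depend on the scaling of a library, was lower in every Ybx1-KO library than in every control, although neither summed level was without overlap under TMM.

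The EphA receptors held 4 of the 15 lower members, as many as all semaphorin classes together, among 7 tested EphA genes (57.1%) and 17 tested semaphorins (23.5%), beside 4.26% of all tested genes. They bind the GPI-anchored ephrin-A ligands, with EphA4 binding ephrin-B ligands as well. Epha3, Epha4, Epha5 and Epha7 all had an unadjusted p below 0.05, and under TMM all 3 controls were above all 3 Ybx1-KO libraries in each of them. The groups of Epha5 overlapped with RLE scaling and those of Epha7 with upper-quartile scaling. With total count scaling only Epha3 stayed apart, and Epha4 and Epha7 had an unadjusted p of 0.0510 and 0.0854 in edgeR. Without control 1, the unadjusted p in edgeR was 0.108 for Epha4 and 0.184 for Epha5. It was 0.0939 for Epha4 and 0.0584 for Epha7 without Ybx1-KO 1, and 0.0562 for Epha7 without control 2. Epha3 stayed below 0.05 each time. Epha3 (chr16:63543534-63864175) was at 122, 68.3 and 78.1 CPM in controls and at 28.5, 47.2 and 29.8 CPM in Ybx1-KO libraries, for a log2 fold change of -1.35 ± 0.400 (edgeR, adjusted p = 0.359). Epha7 (chr4:28813131-28967499) was at 86.3, 96.6 and 57.8 CPM in controls and at 25.1, 41.2 and 47.3 CPM in Ybx1-KO libraries, for a log2 fold change of -1.08 ± 0.395 (edgeR, adjusted p = 0.430). The values of Epha7 were highest in control 2, whereas those of Epha3 were lowest there among the controls.

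Epha4 (chr1:77367185-77515088), the most abundant EphA gene at 11.5 FPKM, was at 165, 102 and 109 CPM in controls and at 38.0, 82.0 and 61.9 CPM in Ybx1-KO libraries (log2 fold change -1.05). Epha5 was at 224, 77.2 and 115 CPM in controls and at 76.8, 55.4 and 52.0 CPM in Ybx1-KO libraries (log2 fold change -1.18), so that control 2 and Ybx1-KO 1 were nearly equal. The 3 other tested EphA genes were low and had positive values, with Epha1 at 1.03, Epha10 at 1.20 and Epha2 at 1.59, all of them tested through the Ybx1-KO mean alone. Without Ybx1-KO 3 these values were -1.22, 0.60 and 1.55, and without control 2 they were 1.18, 2.07 and 2.74. Epha2 stood at 0.528, 4.21 and 1.27 CPM in controls and at 6.69, 5.09 and 6.39 CPM in Ybx1-KO libraries, without overlap but, in Ybx1-KO 3, at less than 3 times the mean level of the sensory receptor genes per exon length. With these included, the median log2 fold change of the 7 tested EphA genes was -1.05.

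EphB receptors bind the transmembrane ephrin-B ligands. Over their 5 tested genes the log2 fold change had its median at 0.37, and whether this differed from the EphA genes was not tested. Ephb3 was at 13.4, 16.9 and 14.3 CPM in controls and at 64.4, 25.4 and 14.9 CPM in Ybx1-KO libraries (log2 fold change 1.23 ± 0.482, edgeR, adjusted p = 0.436). Ybx1-KO 3 was inside the control range under TMM, and the log2 fold change was 0.44 without Ybx1-KO 1. The Ybx1-KO values of Ephb3 lay above all control values with RLE, upper-quartile and total count scaling. Ephb2 (14.4 FPKM) and Ephb1 (6.98 FPKM), the most abundant EphB genes, had log2 fold changes of 0.37 and 0.28 and overlapped. The summed EphA level was 59.1, 39.7 and 37.4 FPKM in controls and 18.0, 27.2 and 27.5 FPKM in Ybx1-KO libraries, and the summed EphB level 22.8, 33.9 and 27.0 FPKM and 40.9, 46.8 and 24.5 FPKM. The EphA sums did not overlap with TMM, RLE or upper-quartile scaling, but did with total count scaling. EphA stood at 2.59, 1.17 and 1.39 times EphB in control 1, 2 and 3 and at 0.439, 0.581 and 1.12 times in Ybx1-KO 1, 2 and 3. All control ratios were above all Ybx1-KO ratios, and control 2 and Ybx1-KO 3 differed by less than either group's spread. The ratios between families and between paralogs given here were chosen after the values of the genes had been seen.

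**Figure D2:**
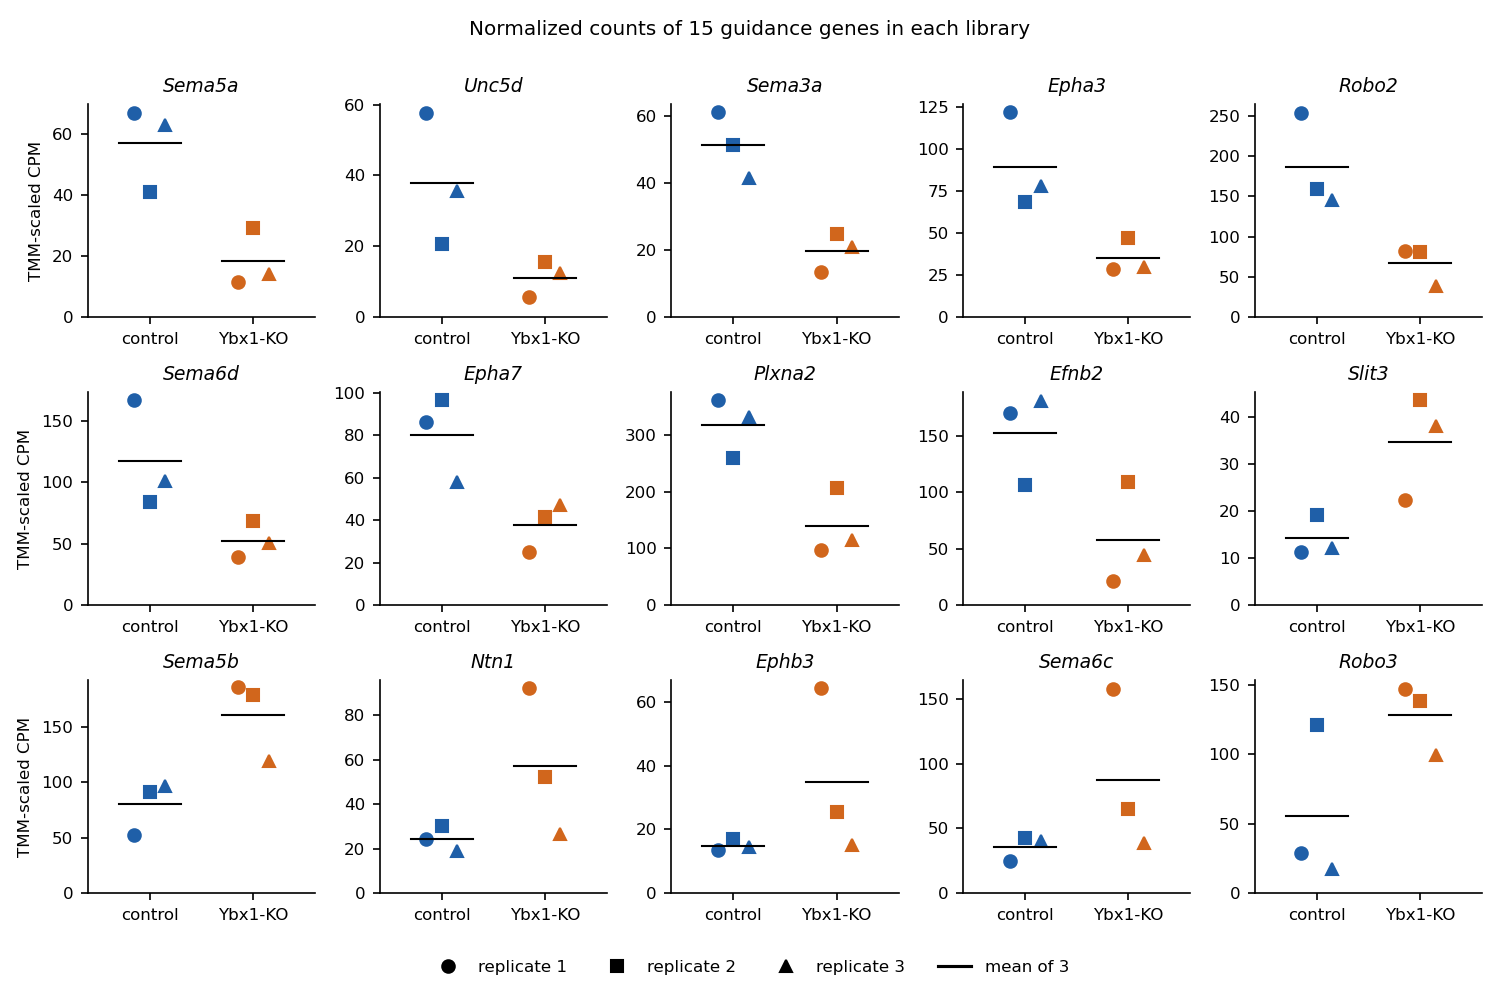
TMM-scaled CPM of 15 guidance genes in each library, with symbols for replicates 1, 2 and 3 and lines for group means. The 3 controls of Sema5a, at 41.1 to 66.9 CPM, lie above the 3 Ybx1-KO libraries, at 11.3 to 29.2 CPM, whereas Ntn1, Ephb3 and Sema6c are high mainly in Ybx1-KO 1.

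Of the ephrins, Efnb2 alone had an unadjusted p below 0.05. Efnb2 (chr8:8617434-8661242), a transmembrane ligand of EphB receptors and EphA4, was at 170.3, 106 and 180.5 CPM in controls and at 20.9, 109 and 44.3 CPM in Ybx1-KO libraries, for a log2 fold change of -1.39 ± 0.518 (edgeR, adjusted p = 0.432). Ybx1-KO 2 lay just above control 2 under TMM, whereas with total count scaling every Ybx1-KO value lay below every control value. Without Ybx1-KO 2 the log2 fold change was -2.23 with an adjusted p of 0.0146 in edgeR, a setting in which 1.97% of all tested genes were called. Without Ybx1-KO 1 or control 3 it was -0.99 or -1.25, with an unadjusted p above 0.05. In controls Efnb2 (22.2 FPKM) was level with Efnb3 (22.4 FPKM) and above Efna2 (14.4 FPKM). Efnb3 and Efna2, the most abundant ephrins over the 6 libraries at 21.5 and 17.1 FPKM, overlapped between the groups with log2 fold changes of -0.13 and 0.46. Efna2 was at 82.9 CPM in Ybx1-KO 2 and between 20.2 and 35.0 CPM in the other 5 libraries. The median was 0.46 over the 5 ephrin-A genes and -0.13 over the 3 ephrin-B genes.

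Ybx1 takes its name from the Y-box, a promoter element around the letters CTGATTGG that contains an inverted CCAAT. In RefSeq promoter windows of GRCm38.p6, from 250 bases before to 50 bases after a start, CTGATTGG on either strand was present in 4 of the 58 members with a window (6.9%) and in 4.7% of 27025 genes. The shorter word ATTGG, which lies within it, was present in 19 members (32.8%) and in 41.1% of genes. The 4 members were Efnb2 and the receptors Epha8, Ephb1 and Ephb4, of which Efnb2 alone had an unadjusted p below 0.05. The stretches around the match are shown to allow a comparison of its setting and strand, 5′ to 3′ on the gene's own strand, with CTGATTGG or its reverse complement CCAATCAG in capitals.
Efnb2: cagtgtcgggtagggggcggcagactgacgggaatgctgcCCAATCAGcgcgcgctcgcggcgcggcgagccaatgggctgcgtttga
Ephb1: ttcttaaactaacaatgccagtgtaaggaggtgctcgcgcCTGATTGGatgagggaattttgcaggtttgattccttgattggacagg
Ephb4: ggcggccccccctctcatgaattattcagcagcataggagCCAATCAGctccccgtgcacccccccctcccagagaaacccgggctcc
Epha8: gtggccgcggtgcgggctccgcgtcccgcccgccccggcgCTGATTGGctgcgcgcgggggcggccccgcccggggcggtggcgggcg
They lie at chr8:8661290-8661377 on the minus strand (Efnb2), chr9:102354749-102354836 on the minus strand (Ephb1), chr5:137349926-137350013 on the plus strand (Ephb4) and chr4:136956861-136956948 on the minus strand (Epha8). The first base of the match was 95 bases before the start in Efnb2, 103 in Ephb1, 143 in Ephb4 and 92 in Epha8. A further ccaat or attgg follows the match in Efnb2 and Ephb1. These are matches of letters and not sites at which binding was measured.

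Slits are large secreted proteins that repel axons through Robo receptors. Slit3 (chr11:35121224-35708507) was at 11.4, 19.2 and 12.2 CPM in controls and at 22.5, 43.7 and 38.1 CPM in Ybx1-KO libraries. The groups did not overlap, and the log2 fold change of 1.29 ± 0.412 had the lowest adjusted p of the higher members (edgeR, adjusted p = 0.392). Slit1 and Slit2 stood at 6.55 and 4.44 FPKM over the 6 libraries and overlapped, with log2 fold changes of 0.12 and 0.26.

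Robo2 (chr16:73891839-74411825) was at 254, 159 and 146 CPM in controls and at 81.6, 81.2 and 38.1 CPM in Ybx1-KO libraries, for a log2 fold change of -1.47 ± 0.440 (edgeR, adjusted p = 0.359), without overlap. Robo1, its neighbour on chromosome 16, was at 198, 365 and 174 CPM in controls and at 152, 287 and 94.5 CPM in Ybx1-KO libraries, and these overlapped (log2 fold change -0.47). Robo3, which commissural axons use on their way to the midline, was at 28.7, 121 and 16.9 CPM in controls and at 147, 138 and 99.0 CPM in Ybx1-KO libraries, with a log2 fold change of 1.21 ± 0.572 and an unadjusted p of 0.0504 in edgeR. Control 2 was thus among the Ybx1-KO libraries for Robo3. Without control 2, the log2 fold change was 2.49 and the adjusted p 0.0391 in edgeR, a setting in which 0.333% of all tested genes were called. Without control 1 or control 3 it was 0.91 or 0.78, with an unadjusted p above 0.05. Robo3 stood at 0.350, 0.798 and 0.234 times the FPKM of Robo1 in control 1, 2 and 3 and at 2.33, 1.16 and 2.53 times in Ybx1-KO 1, 2 and 3, without overlap. The ratio of Robo2 to Robo1 overlapped, at 1.245, 0.4235 and 0.818 in controls and 0.523, 0.275 and 0.392 in Ybx1-KO libraries.

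Ntn1 (chr11:68209364-68400823), a cue secreted by floor plate and ventricular zone cells, was at 24.5, 30.1 and 18.7 CPM in controls and at 92.2, 52.2 and 26.4 CPM in Ybx1-KO libraries, for a log2 fold change of 1.22 ± 0.445 (edgeR, adjusted p = 0.430). Ybx1-KO 3 lay between the control values under TMM, and Ybx1-KO 1 was highest, without which the log2 fold change was 0.69. With RLE, upper-quartile and total count scaling, all Ybx1-KO values of Ntn1 lay above all control values. Ntn4 was at 12.8, 23.3 and 11.0 CPM in controls and at 12.9, 45.5 and 21.03 CPM in Ybx1-KO libraries, so that its high value was in another library, Ybx1-KO 2. The summed netrins averaged 8.16 ± 2.61 FPKM over controls and 16.7 ± 5.29 FPKM over Ybx1-KO libraries (SD, n = 3 each). They overlapped by a narrow margin with TMM (control 2 at 11.0 and Ybx1-KO 3 at 10.7 FPKM) and were apart with the 3 other scalings.

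The log2 fold changes of the 5 netrin receptors had their median at -0.73, and those of the 2 tested netrins at 0.99. Unc5d (chr8:28646717-29219636), a repulsive receptor that also binds FLRT2, was at 57.5, 20.8 and 35.7 CPM in controls and at 5.56, 15.6 and 12.4 CPM in Ybx1-KO libraries. Its log2 fold change of -1.77 ± 0.481 was the lowest of any tested member (edgeR, adjusted p = 0.305), without overlap. Dcc, the attractive receptor and the most abundant of this group (15.0 FPKM), was at 212, 415 and 115 CPM in controls and at 103, 251 and 92.5 CPM in Ybx1-KO libraries (log2 fold change -0.73 ± 0.530). The groups overlapped, and control 2 was highest. The summed Unc5 receptors stood at 0.961, 0.3905 and 1.79 times Dcc in controls and 0.892, 0.693 and 1.14 times in Ybx1-KO libraries, with overlap. Unc5c (-0.83) and Unc5a (-0.58) had negative and Unc5b (0.47) positive log2 fold changes, each with an unadjusted p above 0.05 in edgeR. Unc5a depended on single libraries, with -1.42 without Ybx1-KO 2 (edgeR, unadjusted p = 0.0140) and -0.08 without control 3.

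By role, 10 of 31 tested receptors were lower (32.3%) and 1 was higher (3.23%) at an unadjusted p below 0.05, with the median log2 fold change at -0.25. Of 30 tested ligands, 5 were lower (16.7%) and 6 higher (20%), with the median at 0.19, and the shares over all tested genes were 4.26% lower and 6.96% higher. These counts depended on single libraries. Without control 1, the lower receptors were Epha3, Epha7, Plxna4, Robo2 and Unc5d and the lower ligands Efnb2, Sema3a and Sema5a. Ntn1 and Slit3 were then the only higher members, and over all tested genes 1.85% were lower and 3.02% higher. Whether receptors and ligands differed was not tested. The 34 receptors summed to 249 ± 32.8 FPKM over controls and 212 ± 72.1 FPKM over Ybx1-KO libraries, and the 34 ligands to 199 ± 20.8 and 218 ± 68.6 FPKM (SD, n = 3 each). Both sums overlapped. In a two-sided exact permutation test of the CPM of single members over the 6 libraries, the smallest p that 3 against 3 libraries allow is 0.1, and it was reached by the members without overlap.

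Other genes of the pathway came from a pair of lists drawn up by function. Of 22 other cues, co-receptors and adhesion partners, all tested, 6 were lower (27.3%, all tested genes 4.26%) and 1 (Cxcr4) was higher (4.55%, all tested genes 6.96%) at an unadjusted p below 0.05, with the median log2 fold change at -0.48 and a lowest adjusted p of 0.406 in edgeR. Dscaml1, an immunoglobulin-family adhesion receptor, had a log2 fold change of -1.50 and was tested through the control mean alone. Flrt2, a ligand of Unc5d, stood at -1.25, Chl1, a relative of L1cam, at -1.23, and the netrin-G Ntng1 at -1.16. The groups did not overlap for any of these 4. Chl1 was the most abundant of them in reads, at 261, 260 and 161 CPM in controls and 114, 115 and 62.5 CPM in Ybx1-KO libraries.

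Of 44 cytoplasmic effectors, 42 were tested, 4 were lower (9.52%, all tested genes 4.26%) and 0 were higher (all tested genes 6.96%) at an unadjusted p below 0.05, and the median log2 fold change was -0.03. The kinases Rock1 (-1.14) and Rock2 (-0.93), which act below RhoA, the kinase Pak3 (-1.02), which acts below Rac and Cdc42, and the adaptor Nck1 (-0.98) were the lower ones. Rac1, Cdc42 and Rhoa themselves had values of -0.20, -0.15 and 0.19.

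Markers of position along the neural tube also differed between libraries. The summed CPM of 11 forebrain genes was 1328, 172.6 and 1391 in control 1, 2 and 3 and 324, 248 and 105 in Ybx1-KO 1, 2 and 3, and its most abundant gene Neurod6 went from 498, 16.3 and 351 CPM to 21.3, 3.53 and 4.69 CPM. The list did not go in 1 direction, since 7 of its 11 genes were lower and 1, Six3, was higher at an unadjusted p below 0.05 (log2 fold change 1.43), and Emx2 stood at 0.26 on the log2 scale. The summed CPM of 39 Hox genes, which mark hindbrain and spinal cord, was 130.1, 1067 and 325 in controls and 1334, 1384 and 677 in Ybx1-KO libraries (most abundant Hoxb9). By both sums, control 2 stood with the Ybx1-KO libraries and apart from control 1 and 3. The 7 floor plate genes summed to 49.0, 71.1 and 37.6 CPM in controls and 105, 152.5 and 87.0 CPM in Ybx1-KO libraries, without overlap (most abundant Spon1).

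The members shared this arrangement only in part. Control 2 was the control nearest to the mean of the Ybx1-KO libraries for 12 of the 15 lower members and 5 of the 7 higher ones. It was also nearest for 36 of all 61 tested members (59%), and for 29.3% of all tested genes. Among genes at an unadjusted p below 0.05, it was nearest for 46.6% of all lower and 27.1% of all higher ones. For 12 members all 3 controls, control 2 among them, lay above every Ybx1-KO library under TMM. Without control 2, 14 members were lower (all tested genes 3.04%) and 9 higher (all tested genes 4.07%) at an unadjusted p below 0.05, beside 15 and 7 with all libraries. How far a different share of neural tube regions, or fewer cells of a type as against less RNA per cell, contributed to the members' values was not tested, and in bulk libraries these cannot be told apart.

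**Figure D3:**
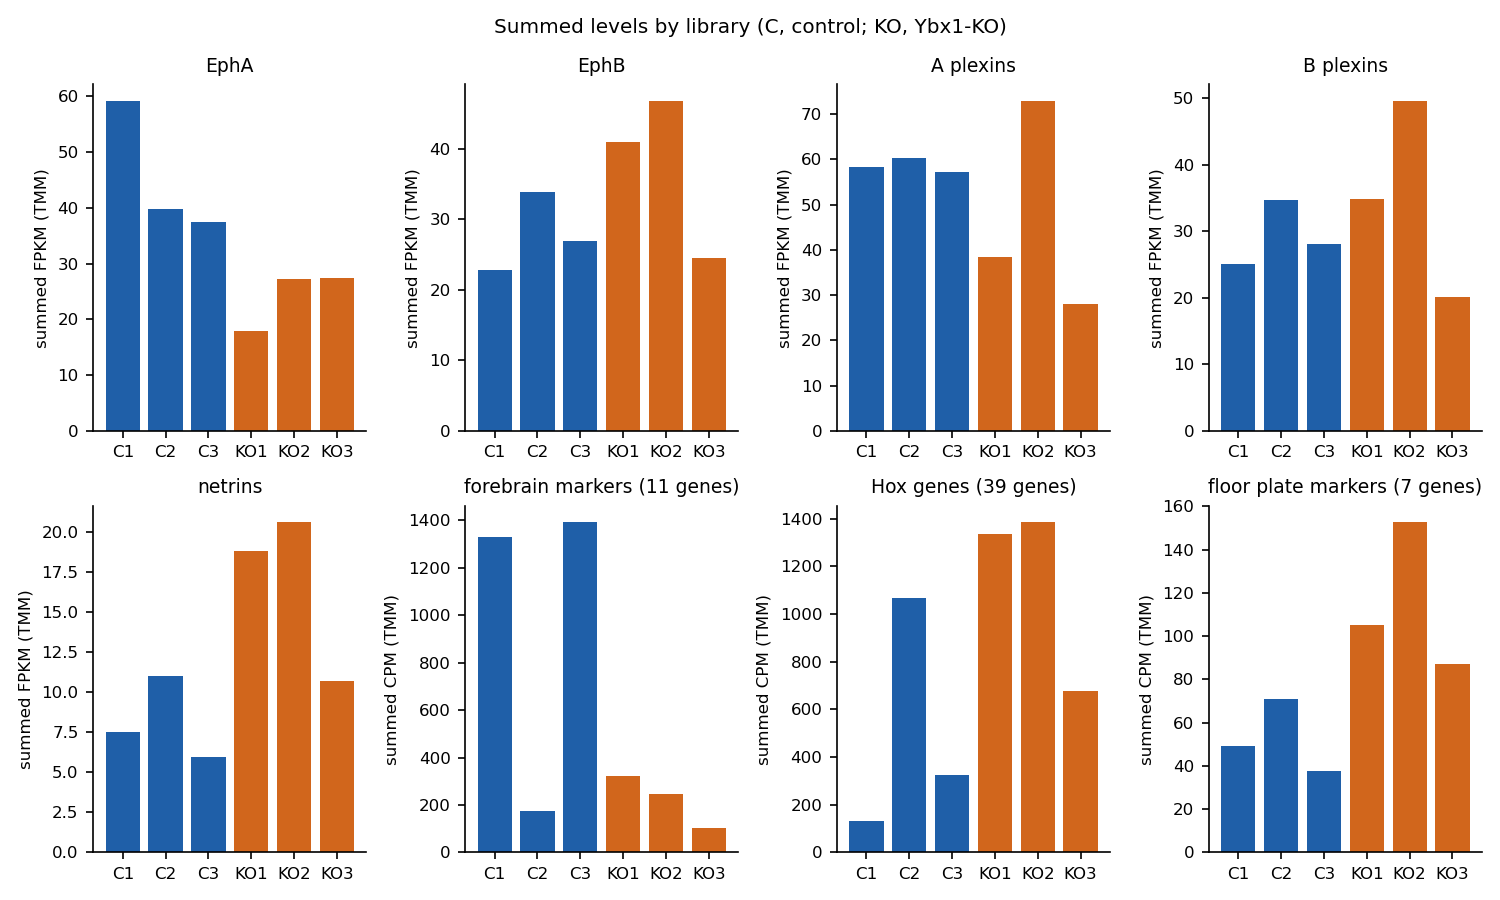
Summed TMM-scaled levels by library (C, control, and KO, Ybx1-KO) for 5 guidance families in FPKM and for 3 lists of region markers in CPM. The EphA bars are lower in the 3 Ybx1-KO libraries than in the 3 controls, and control 2, with 172.6 CPM of forebrain and 1067 CPM of Hox genes, resembles the Ybx1-KO libraries in both marker panels.

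Markers of other cells were checked in the same way. Neuron markers summed to 3386, 5480 and 3770 CPM in controls and 4635, 3889 and 1876 CPM in Ybx1-KO libraries (12 genes, most abundant Dcx), more than the 10 progenitor markers with 1646, 1548 and 1709 CPM and 2055, 1680 and 1253 CPM (most abundant Fabp7). Transcripts typical of neurons were thus present in every sorted library. Sox2, the gene of the reporter, was at 17.5, 43.0 and 48.4 CPM in controls and 33.6, 50.6 and 24.2 CPM in Ybx1-KO libraries. Both sums overlapped between the groups, but single progenitor markers differed in direction. Nes, Hes1, Hes5 and Notch1 were higher at an unadjusted p below 0.05 (log2 fold changes 1.44, 1.18, 1.05 and 1.10), Slc1a3 was lower (-1.78), and the median over the 10 genes was 0.45, while Fabp7 stood at -0.66. Mesenchyme and meninges markers were at 888, 138 and 222 CPM in controls and 114, 134 and 79.9 CPM in Ybx1-KO libraries (8 genes, most abundant Col3a1), without overlap under TMM. Neural crest and Schwann cell markers were at 30.8, 47.1 and 50.7 CPM in controls and 74.9, 165 and 55.3 CPM in Ybx1-KO libraries (5 genes, most abundant Sox10), also without overlap.

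Endothelial (8 genes, most abundant Cdh5), microglial (6 genes, Csf1r) and erythroid markers (7 genes, Hbb-y) overlapped between the groups. Endothelial markers reached at most 84.0 CPM and microglial markers at most 37.7 CPM, both in Ybx1-KO 3. Erythroid markers were at 1169, 617.5 and 479 CPM in controls and 900.4, 260.2 and 154 CPM in Ybx1-KO libraries. The part of these cells in the values of the members was not tested.

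Exon length is a caveat for these families, since their transcripts are long. The median exon length was 7002 bases over the tested members, 4237 bases over the 13694 protein-coding tested genes and 2691 bases over all tested genes. Across all tested genes the fold change declined with exon length (Spearman's rho -0.427, genes not being independent replicates), and the median log2 fold change went from 2.42 in the shortest of 5 equal classes to -0.18 in the longest. Without Ybx1-KO 3, rho was 0.06 across all tested genes, whereas over the 61 members it was -0.55 with all libraries and -0.495 without Ybx1-KO 3. Across the protein-coding tested genes alone, rho was -0.322 with all libraries and -0.076 without Ybx1-KO 3. The longest class, 5966 to 123179 bases, held 37 members and all 15 of the lower ones. In that class, 40.5% of the members were lower and 10.8% higher at an unadjusted p below 0.05, beside 9.17% and 4.34% of all genes of the class, and the medians were -0.47 and -0.18.

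Offsets fitted to each library by exon length reduced this dependence without removing it, with a rho of -0.113 left across all tested genes and of -0.465 over the members. With them, 11 members were lower (all tested genes 4.2%) and 8 higher (all tested genes 5.85%) at an unadjusted p below 0.05. All 11 and 6 of the 8 had been so before, and Slit2 and Robo3 joined the higher ones. The lower ones in both were Efnb2, Epha3, Epha4, Epha7, Plxna2, Plxna4, Robo2, Sema3a, Sema5a, Sema6d and Unc5d, and the higher ones Ephb3, Ntn1, Sema4c, Sema5b, Sema6c and Slit3. Sema5a then had a log2 fold change of -1.38 and Unc5d of -1.61, and the median of the members was 0.05 beside 0.20 over all tested genes. Epha5 (-0.79), Nrp1 (-0.97), Plxnc1 (-0.68), Sema3b (2.01) and Sema3c (-0.86) kept their direction but no longer had an unadjusted p below 0.05. Efna3, Nrp2 and Plxnb2, each within 0.08 of 0 before, changed sign.

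**Figure D4:**
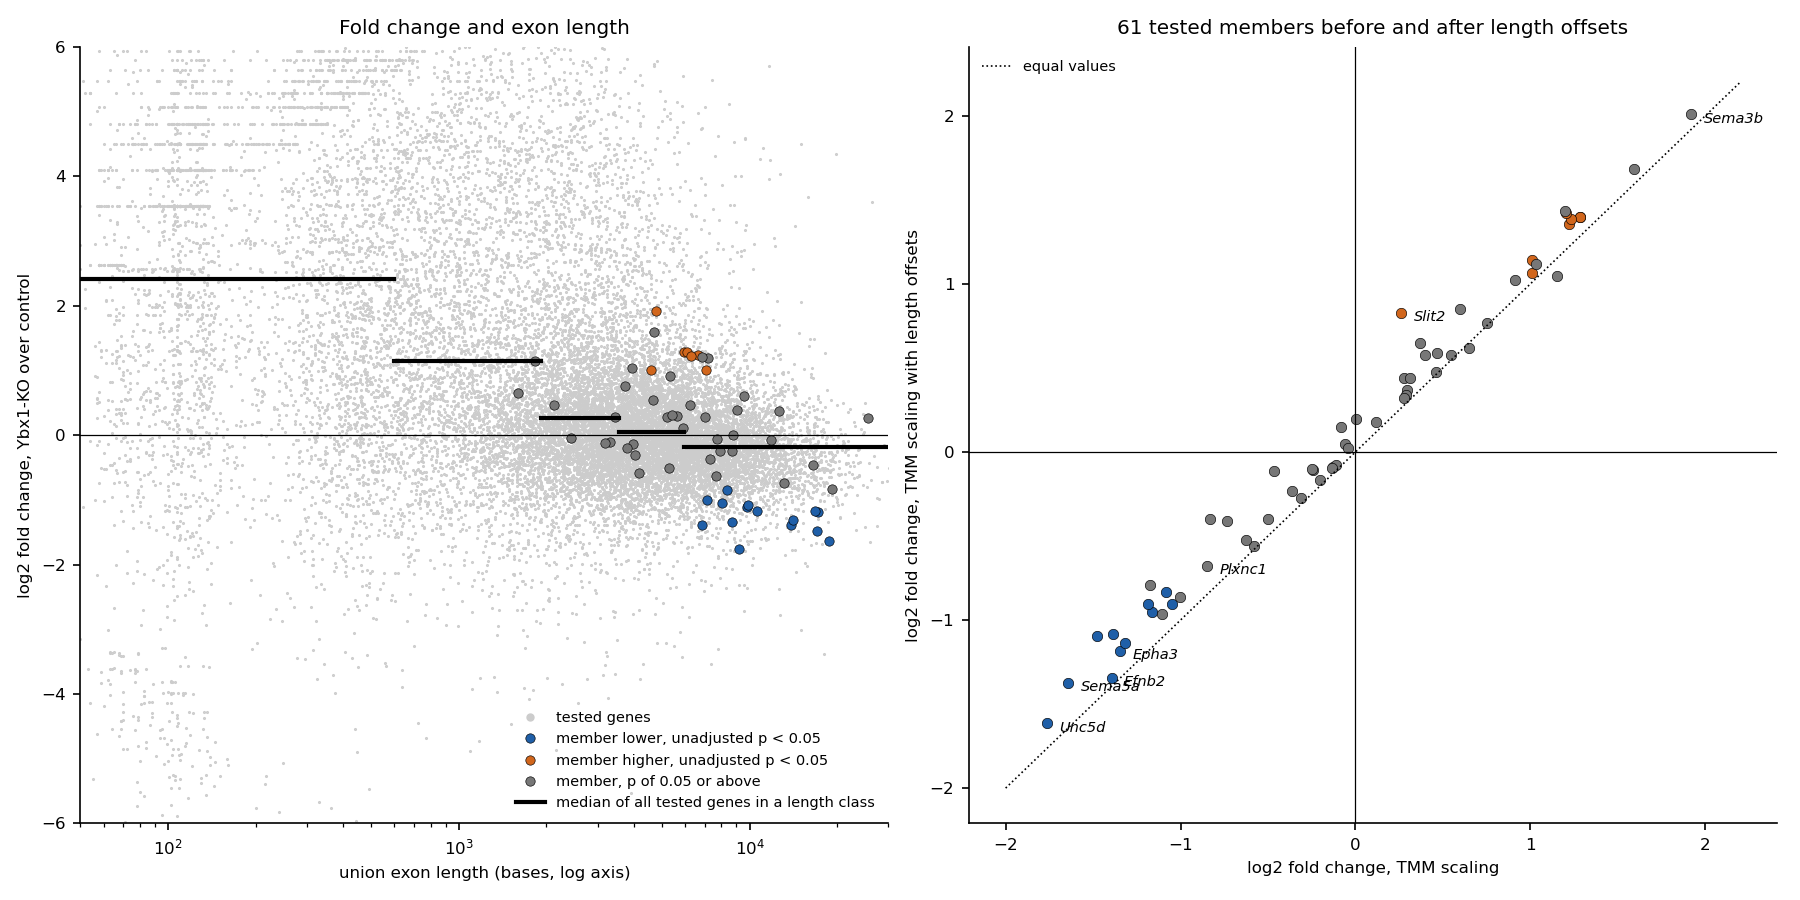
Left, log2 fold change against union exon length on a log axis for all tested genes (grey, the most extreme genes lying outside the axis), with the members coloured and the medians of 5 length classes as bars from 2.42 to -0.18. Right, log2 fold changes of the 61 tested members before and after length offsets, with colours for an unadjusted p below 0.05 after the offsets and with 11 lower and 8 higher members.

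Some members share annotated exon bases with a gene on the opposite strand, most of all Ntn5 (23.4%) among the untested and, among the tested, Efna3 (14.1% of its exon length), Plxna1 (10.7%), Efna4 (10.5%), Sema4c (7.27%) and Epha1 (6.01%). The strand setting of the counting was not given in the sources used here, so reads of the partner genes cannot be told apart from theirs.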

How the data were processed

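Total RNA of FACS-sorted Sox2-positive NPCs was sequenced as stranded paired-end libraries on Illumina HiSeq instruments of 2 models, and which library ran on which was not given. The authors counted read pairs on GENCODE genes with HTSeq 0.6.1p1 and deposited raw counts per gene symbol, 1 table per library, without normalization or pooling. The submitters' processing notes name mm10 and GRCm38.p5, and the aligner and the strand setting are not given in the sources used here. Tallies of read pairs outside genes served only to describe the libraries. The libraries held 4743279 to 23883542 counts on genes, without molecular identifiers, so that limits cover counting error only. Groups followed the genotype labels. The titles of control 1 and 2 carry a common number, as do those of Ybx1-KO 1 and 2, whose meaning is not given, so that p-values measure the spread between these libraries.

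Exon lengths (union of exons) and coordinates were taken from GENCODE M21 on GRCm38, with 47624 symbols matched directly, 367 by an older symbol and 3742 not matched. Genes whose mean FPKM, scaled by the total on genes, exceeded 1 in control or in Ybx1-KO libraries were tested in R 4.3.3 with edgeR 4.0.16 (TMM, quasi-likelihood test) over all 6 libraries without covariates, with Benjamini-Hochberg adjustment over all tested genes. A call required both an adjusted p below 0.05 and a change of more than 1.5-fold. Printed FPKM is on the TMM scale. The test was tested on simulated data first. Alternatives were limma-voom (limma 3.58.1), DESeq2 1.42.0, other scalings and filters, robust dispersion, exon length offsets (lowess, span 0.3) and leaving out each library.

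Genes named were Ybx1, the 20 members with the lowest unadjusted p below 0.05, the 2 most abundant members of each family, Efnb2, Epha3 and Sema5a, for which the study lists assays, 4 genes of each pathway list and the most abundant gene of each marker list. Any other gene was named after its values were seen. The members and lists were chosen with earlier results of these data known. Promoter sequences are from RefSeq (GRCm38.p6). Ages, sexes and litters of single embryos were not used. Plots were made in Python 3.11.15 (matplotlib 3.10.9).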

Additional observations from a re-analysis of the deposited data

Results flagged for a closer look

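Ybx1-KO 3 stood out in tallies and genes that the comparisons did not use. It had 8.235 read pairs outside genes for each count on genes, above the highest control value of 2.001. In the same library, odorant, pheromone and taste receptor genes took 4691 CPM, above the highest control value of 98.31. Both values belong to 1 library and are not a property of the Ybx1-KO group. No outlier test was made, since each group held 3 libraries.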

How the results depend on the processing

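The libraries limited what could be shown, with 3 per group, a biological coefficient of variation of 0.80 and 1 Ybx1-KO library of 4743279 counts. Among the 45 fitted genes that the naming rule covers, 33 kept their direction in all 25 alternatives, of which 22 were planned and 3 (Ybx1-KO 3 left out with a mean CPM filter or with length offsets, and control 2 left out with length offsets) were chosen after seeing the data. No gene was called by edgeR in the reported analysis (2393 genes at an unadjusted p below 0.05) or by limma-voom, while DESeq2 called 214 genes (1%) with 2 members, Robo2 and Sema5a, and edgeR without a filter on low counts called 193 (0.451%) with 1 member, Unc5d. Leaving out 1 library gave 0 to 420 called genes and 0 to 4 members, and 0 to 946 genes and 0 to 11 members when the filter was applied again, each time most without Ybx1-KO 2. Without control 2 and with length offsets, 63 genes (0.295%) and 1 member, Robo3, were called. Leaving out 1 library, with or without a new filter, gave 8 to 16 lower members at an unadjusted p below 0.05, fewest without control 1 or Ybx1-KO 1, and 2 to 10 higher members, fewest without control 1 (2) or control 3 (3), beside 1.85% to 5.87% lower and 2.91% to 13.6% higher among all tested genes. The median log2 fold change of the members then ranged from -0.41 without Ybx1-KO 2 to 0.18, or 0.26 without Ybx1-KO 3 and with length offsets, and that of all tested genes over all alternatives from -0.07 to 0.70, which moves every sign near 0. The cause of these differences was not tested.

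Direction changed in at least 1 alternative for 23 of the 61 tested members, none with an unadjusted p below 0.05, and for 12 of those that the naming rule covers. Of the others, Epha1 went to -1.22 without Ybx1-KO 3 and -0.11 with limma-voom, and Sema7a to 0.08 with total count scaling and 0.18 without control 3. For the 12, the log2 fold change became 0.023 for Efna3, 0.019 for Plxnb2 and 0.0035 for Nrp2 with CPM above 1 in 3 libraries, 0.026, 0.046 and 0.15 for Efna3, Plxnb2 and Nrp2 with length offsets, 0.027 for Nrp2 with total count scaling, and, for Sema6a, -0.074 with limma-voom and -0.072 with no filter. Over the settings without a library, the ranges were -1.34 to 0.023 for Dcc, -0.48 to 0.83 for Efna2, -0.78 to 0.54 for Efna3, -0.52 to 0.29 for Efnb3, -0.23 to 0.67 for Ephb1, -0.58 to 0.26 for Nrp2, -0.13 to 0.85 for Plxna1, -0.65 to 0.30 for Plxnb2, -0.996 to 0.16 for Robo1, -0.24 to 0.47 for Sema6a, -0.41 to 0.35 for Slit1 and -0.11 to 1.16 for Slit2. No paired analysis was possible because the labels give no number that ties a control to a Ybx1-KO library, and the replicate numbers used here only follow the order of deposit.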
